A study of Mus musculus and Homo sapiens with 12 samples.

Results

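H4K12bu and H4K12ac, the butyryl and acetyl forms of lysine 12 on histone H4, were compared in mouse large intestine by CUT&Tag, with 2 libraries for each mark among the 12 libraries of the series. Regions were taken from the peak list of each library: overlapping rows were merged, and a region was kept as recurrent when rows of both replicates of a mark fell in it. By this rule 9920 recurrent H4K12bu regions and 42262 recurrent H4K12ac regions were found. Genes were then sorted by whether recurrent regions of both marks, of H4K12bu only or of H4K12ac only lay in the gene body or within 1 kb of a gene end. The tissue came from male CETP-ApoB-100 transgenic mice. The labels name it colon epithelial, while the methods describe nuclei from frozen pieces of the dissected organ. The labels do not say that the replicates came from separate mice. The labels give the H4K12bu libraries a high fat, high sucrose diet with 5% arabinoxylan, a fermentable fiber, and give the H4K12ac libraries the high fat, high sucrose diet with no fiber named. The methods describe the fiber as given to all mice of the high fat, high sucrose group in its second period. They also describe a control group kept on a low fat diet in both periods. The diet behind the H4K12ac libraries is therefore uncertain, in fat and sucrose as well as in fiber. Mark, antibody, depth and labelled diet cannot be told apart in this design, and none of the 12 is labelled as an IgG or input library. The titles of the acetyl libraries carry cnt, which is not spelled out, and those of the butyryl libraries but. The paper names a low fat control diet and, for its ChIP-seq, describes the acetyl marks as controls, and it does not say which, if either, cnt stands for. The age of the mice is not given in the sources used here, and with 2 libraries against 2 the smallest two-sided exact permutation p is 0.333, so that every difference below is a description with no test.

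Acetylation and butyrylation both remove the positive charge of lysine, and p300/CBP and related enzymes can transfer either acyl group from its CoA donor. The butyryl chain is longer, and most bromodomains, the reader domains of acetyl-lysine, bind it less well. In the colon, butyrate is made by bacteria from dietary fiber, is the main fuel of colonocytes and is a weak inhibitor of histone deacetylases.

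The depth of the lists set the precision of everything that follows. The H4K12bu lists held 50932 and 96432 rows in replicates 1 and 2. The H4K12ac lists held 299778 and 299623 rows, under a limit of 300000 rows that kept tied rows in order of chromosome name. The pileup, the number of extended read ends over the summit of a row, is not in the lists and was solved from their fold and p. It was 1 in 91.4% and 89.2% of the H4K12bu rows. It was 1 in 52.8% and 12.8% of the H4K12ac rows. Rows with a q below 0.05 made up 1.65% and 2.43% of the H4K12bu lists and 5.05% and 20.5% of the H4K12ac lists, so that both H4K12bu libraries were the shallower ones and a missing H4K12bu row was often not detectable at this depth. The weakest H4K12ac rows were not spread over all chromosomes. In replicate 1, 158414 rows tied at the lowest −log10 p lay on 5 chromosomes, and in replicate 2, 38445 such rows lay on chromosome 1 alone. Values with these tied rows removed are therefore given beside many of the main H4K12ac values. In whole tissue, a mark in fewer cells and a weaker mark in each cell cannot be told apart.

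The promoter sequences of 6 genes show bases that recurrent H4K12bu regions covered. They are the 250 bases before the start site in RefSeq (GRCm38.p6), 5′ to 3′ on the gene's strand, and capitals mark the bases covered by rows of both H4K12bu replicates. Claudin 3 (Cldn3, a sealing protein of tight junctions) and Fgfrl1 (an FGF receptor without a kinase domain) were chosen because the study follows them. Plk4 (the kinase that starts centriole duplication) had the strongest H4K12bu region among genes without a recurrent H4K12ac region. Guca2a (guanylin, a peptide of colonocytes that drives chloride and fluid secretion) had no H4K12ac row at all. Gpa33 (a surface antigen of intestinal epithelium) and Acadm (the medium-chain acyl-CoA dehydrogenase of fatty acid oxidation) had both marks.
Cldn3, chr5:134985964-134986213, + strand: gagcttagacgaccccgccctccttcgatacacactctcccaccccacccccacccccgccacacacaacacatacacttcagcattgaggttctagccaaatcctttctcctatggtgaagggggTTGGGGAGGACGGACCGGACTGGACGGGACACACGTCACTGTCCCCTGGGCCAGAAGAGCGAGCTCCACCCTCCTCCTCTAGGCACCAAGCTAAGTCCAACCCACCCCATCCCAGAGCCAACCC
Fgfrl1, chr5:108693979-108694228, + strand: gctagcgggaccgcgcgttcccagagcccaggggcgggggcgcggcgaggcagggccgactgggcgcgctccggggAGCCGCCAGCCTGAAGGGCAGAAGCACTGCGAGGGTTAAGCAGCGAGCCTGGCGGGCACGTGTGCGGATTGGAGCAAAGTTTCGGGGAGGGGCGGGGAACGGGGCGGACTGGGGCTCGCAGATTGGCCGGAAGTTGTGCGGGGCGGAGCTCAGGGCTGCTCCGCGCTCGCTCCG
Plk4, chr3:40799701-40799950, + strand: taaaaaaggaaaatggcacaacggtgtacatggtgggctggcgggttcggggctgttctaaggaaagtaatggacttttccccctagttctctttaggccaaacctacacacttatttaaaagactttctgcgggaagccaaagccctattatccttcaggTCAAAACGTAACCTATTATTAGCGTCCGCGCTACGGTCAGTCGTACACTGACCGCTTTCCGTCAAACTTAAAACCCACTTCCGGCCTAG
Guca2a, chr4:119637482-119637731, + strand: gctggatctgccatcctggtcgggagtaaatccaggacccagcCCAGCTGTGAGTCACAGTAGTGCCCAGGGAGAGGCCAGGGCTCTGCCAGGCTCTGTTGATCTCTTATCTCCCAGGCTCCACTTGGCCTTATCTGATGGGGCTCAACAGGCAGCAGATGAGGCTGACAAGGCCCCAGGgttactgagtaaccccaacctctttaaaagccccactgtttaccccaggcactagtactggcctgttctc
Gpa33, chr1:166129971-166130220, + strand: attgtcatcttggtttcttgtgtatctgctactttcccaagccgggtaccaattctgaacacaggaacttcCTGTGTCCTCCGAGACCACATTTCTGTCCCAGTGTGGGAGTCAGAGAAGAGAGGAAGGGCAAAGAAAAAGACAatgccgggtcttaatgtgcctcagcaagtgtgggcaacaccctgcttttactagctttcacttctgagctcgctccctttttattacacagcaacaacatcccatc
Acadm, chr3:153944644-153944893, − strand: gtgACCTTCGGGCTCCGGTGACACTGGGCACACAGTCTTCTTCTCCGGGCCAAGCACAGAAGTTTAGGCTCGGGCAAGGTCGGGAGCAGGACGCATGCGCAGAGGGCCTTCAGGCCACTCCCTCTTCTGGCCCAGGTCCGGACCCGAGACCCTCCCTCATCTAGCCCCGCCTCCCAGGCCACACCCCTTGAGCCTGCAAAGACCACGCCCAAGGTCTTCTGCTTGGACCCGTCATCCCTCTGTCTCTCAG

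The sequences differ widely in base composition. The G and C content was 73.6% for Fgfrl1, 64.0% for Acadm, 60.8% for Cldn3, 57.2% for Guca2a, 47.6% for Gpa33 and 47.2% for Plk4. Fgfrl1 held 30 CpG dinucleotides, and Guca2a held 1. Both H4K12bu replicates covered 247 of the 250 bases at Acadm, 174 at Fgfrl1, 137 at Guca2a, 124 at Cldn3, 89 at Plk4 and 73 at Gpa33. The 73 bases at Gpa33 belong to another recurrent region than the strongest one of that gene, which starts just past the printed window.

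At Cldn3 the recurrent H4K12bu region spanned the start site (chr5:134985601-134986292), with a pileup of 3 in replicate 1 and 3 in replicate 2. The authors' fold over local background was 3.63 and 3.20, and the −log10 q of 0.851 and 0.422 did not reach a q of 0.05 in either. The H4K12ac list of replicate 1 had 1 row in the Cldn3 window, with a pileup of 4 at chr5:134985116-134985366, which lies before the H4K12bu region and does not overlap it. The H4K12ac list of replicate 2 had none. Cldn3 was thus a gene with H4K12bu only by the rule of 2 replicates, while a single H4K12ac row lay nearby.

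At Fgfrl1 the recurrent region (chr5:108693886-108694246) had pileups of 3 and 2 and folds of 3.83 and 2.91. Replicate 1 passed a q of 0.05 with a −log10 q of 1.76, and replicate 2 did not, with 1.15. The H4K12ac lists had 2 and 4 rows elsewhere in the Fgfrl1 window, with highest pileups of 3 and 5, but no stretch with a row in both replicates. These pileups are not adjusted for the greater depth of the H4K12ac lists. The strongest H4K12ac rows had folds of 3.13 and 3.75, which overlapped those of H4K12bu in range. They lay at different places in the replicates.

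Of 21887 protein-coding genes, 4487 (20.5%) had recurrent regions of both marks, 1138 (5.2%) of H4K12bu only and 6251 (28.6%) of H4K12ac only. With the tied H4K12ac rows removed, 4424 (20.2%) had both marks, 1201 (5.49%) H4K12bu only and 5754 (26.3%) H4K12ac only. No gene with H4K12bu only changed class, 63 genes with both marks became H4K12bu only, and 497 genes with H4K12ac only were left with neither mark. Counted by mark, 5625 genes (25.7%) had a recurrent H4K12bu region and 10738 (49.1%) a recurrent H4K12ac region, or 10178 (46.5%) without the tied rows. Over all 49943 genes of the table, including noncoding genes, 5445 had both marks, 1746 H4K12bu only and 9805 H4K12ac only. Without the tied rows these were 5353, 1838 and 8562. With equal numbers of strongest regions from every list they were 1983, 2530 and 3267, so that H4K12bu only then outnumbered both marks.

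Sharing a gene did not always mean sharing a place. Regions of the 2 marks overlapped in 2638 of the 4487 protein-coding genes with both marks (58.8%), and lay apart in the other 1849. Of all recurrent H4K12bu regions, 3484 of 9920 (35.1%) were overlapped by a recurrent H4K12ac region, and 3518 of 42262 recurrent H4K12ac regions (8.32%) were overlapped by one of H4K12bu. Without the tied rows these shares were 34.8% and 11.4%. Merged regions with the same start and end were counted between single libraries as well. H4K12ac replicate 1 had 215 such regions in common with H4K12bu replicate 1 and 56 with H4K12bu replicate 2, while H4K12ac replicate 2 had 93 and 199. The H4K12bu replicates had 174 in common and the H4K12ac replicates 265. Between the marks, the counts were thus higher for libraries of the same replicate number. H4K12ac replicate 1 had more in common with the shorter H4K12bu list and H4K12ac replicate 2 with the longer one. What links libraries of the same number, and the part of list size and of identical regions in the overlap, was not tested. The overlap rose with depth in both directions. The share was 29.8% for H4K12bu regions whose lower replicate had a pileup of 1, 54.7% at a pileup of 2, 76.5% at 3 to 4 and 85.2% for the 54 regions at 5 or more. For H4K12ac regions it was 4.88% at a pileup of 2, 19.3% at 3 to 4, 50.2% at 5 to 9 and 74.7% for the 79 regions at 10 or more. At shared regions the median pileup was 1 and 2 in the H4K12bu replicates and 3 and 5 in the H4K12ac replicates. At H4K12bu regions without recurrent H4K12ac it was 1 in both H4K12bu replicates.

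The class of genes with H4K12bu only rested on shallow regions. Of its 1138 genes, 167 (14.7%) had a recurrent region where each replicate reached a pileup of 2, against 1197 (26.7%) of the genes with both marks. Only 22 of the 1138 genes (1.93%) had no row in either H4K12ac list, beside 14.1% of all protein-coding genes. The class thus mostly held genes whose H4K12ac rows did not recur at 1 place. In the same way, 648 of the 6251 genes with H4K12ac only (10.4%) had no row in either H4K12bu list, or 484 of 5754 (8.41%) without the tied rows. Of all protein-coding genes, 27.6% had no row in either H4K12bu list. The 22 genes without any H4K12ac row included Guca2a, the inducible signaling inhibitor Socs1, the mRNA decay factor Zfp36, the transcription inhibitor Id1, the nucleolar proteins Gnl3 and Nolc1, and Cyp8b1, the sterol hydroxylase of bile acid synthesis; these 7 were picked from the 22 after their values were seen. Guca2a had 1 row in each H4K12bu list, with pileups of 2 and 3 in a region (chr4:119637373-119637688) before its start site, and neither reached a q of 0.05.

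The genes with both marks and the strongest H4K12bu regions at a gene end were Orc5, Zfp53, Zfp738, Gtpbp10, Trappc6b, Gpa33, Uqcrc2, Zfp639, Map3k8 and Ctsc. At all 10 the named H4K12bu region was overlapped by a recurrent H4K12ac region. Orc5, a subunit of the origin recognition complex, had H4K12bu pileups of 11 and 14 at chr5:22550205-22550537, within 1 kb of a gene end. The highest H4K12ac pileups anywhere in Orc5 were 3 and 8. At Zfp639 the H4K12bu pileups were 6 and 6 and the H4K12ac pileups 3 and 5. These genes were ranked by their H4K12bu values, so that the order of the marks at them is a description only. Gpa33 had H4K12bu pileups of 6 and 15 (chr1:166130224-166130686) beside H4K12ac pileups of 6 and 9, and the marks overlapped in range. Its H4K12bu folds were 6.23 and 12.5, with −log10 q of 4.27 and 15.5.

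Uqcrc2, a core subunit of respiratory complex III, had H4K12bu pileups of 8 and 6 and H4K12ac pileups of 7 and 12. Gtpbp10, a GTPase of mitochondrial ribosome assembly, had 6 and 7 against 10 and 9. Trappc6b, a subunit of the TRAPP complex of vesicle tethering, had 6 and 8 against 11 and 10. Pileups are not adjusted for depth, and the H4K12ac lists are deeper. In fold over local background, Gtpbp10 had 6.35 and 6.89 against 8.33 and 7.10, with both H4K12ac libraries above both H4K12bu libraries. At Trappc6b the folds were 6.35 and 7.71 against 7.72 and 6.98, and the marks overlapped in range. Ctsc, the lysosomal dipeptidyl peptidase cathepsin C, had 6 and 6 against 5 and 12. The zinc finger gene Zfp53 had 11 and 16 against 11 and 33, and Zfp738 had 10 and 13 against 12 and 19. Both belong to a family with closely similar copies, between which reads may be hard to split, and this was not tested.

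Among genes with H4K12bu only, the strongest regions were at Plk4, Dut, Hsd17b7, Zfp324, Zfp942, Zfp943, Ap1s2, Cth, Iba57 and Prkcsh, and their 9 regions, 1 of them shared, had q below 0.05 in both replicates. At Plk4 (chr3:40799765-40800072) the H4K12bu pileups were 6 and 7 and the folds 6.44 and 7.16. The Plk4 window also held H4K12ac rows with highest pileups of 2 and 8, at different places. Dut, the dUTPase that keeps uracil out of DNA, had pileups of 7 and 6 at a gene end (chr2:125247151-125247782), no H4K12ac row in replicate 1 and rows of up to 6 in replicate 2. Hsd17b7, a ketosteroid reductase of cholesterol synthesis, had 5 and 5, beside H4K12ac pileups of at most 2 and 3. Cth, the cystathionine lyase that makes cysteine, had 3 and 4, beside no H4K12ac row in replicate 1 and a highest pileup of 2 in replicate 2. The rule chose these genes for strong H4K12bu without recurrent H4K12ac, so that nothing is read from the order of the marks. Prkcsh, the beta subunit of the glucosidase II that trims N-glycans in the ER, had pileups of 3 and 3 against 2 and 4, which overlapped in range. Zfp942 and Zfp943 shared 1 region, which a separate row of each H4K12ac replicate overlapped at places that did not meet. At Zfp324 a single H4K12ac row of replicate 1, with a pileup of 4, overlapped the H4K12bu region, and at Ap1s2, an adaptor subunit of clathrin coats, a row of replicate 2 with a pileup of 3 did. At these genes the class rested on 1 missing H4K12ac row.

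The genes with H4K12ac only and the strongest regions were Cldn34d, Zfp456, Lrr1, Zfp493, Mctp2, Mtrf1, Tmtc1, Wdr38, Zfp442 and Zfp763. Lrr1, a substrate receptor of a cullin ubiquitin ligase, had H4K12ac pileups of 10 and 11, and Mtrf1, a mitochondrial release factor, had 10 and 19. Neither gene had a row in either H4K12bu list. Wdr38 had 9 and 12, with a single H4K12bu row of pileup 1 in replicate 1. Cldn34d, a claudin-like gene on chromosome X, had 14 and 39, the latter the highest of these genes in replicate 2, with H4K12bu rows of pileup 1 in replicate 2 and none in replicate 1. Zfp456 had 15 and 25, but H4K12bu replicate 2 had a row with a pileup of 10 over the same stretch. Zfp493 had 12 and 20, with an overlapping row of pileup 5 in H4K12bu replicate 2. At both genes the class rested on H4K12bu replicate 1 alone, which had no row.

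**Figure D1:**
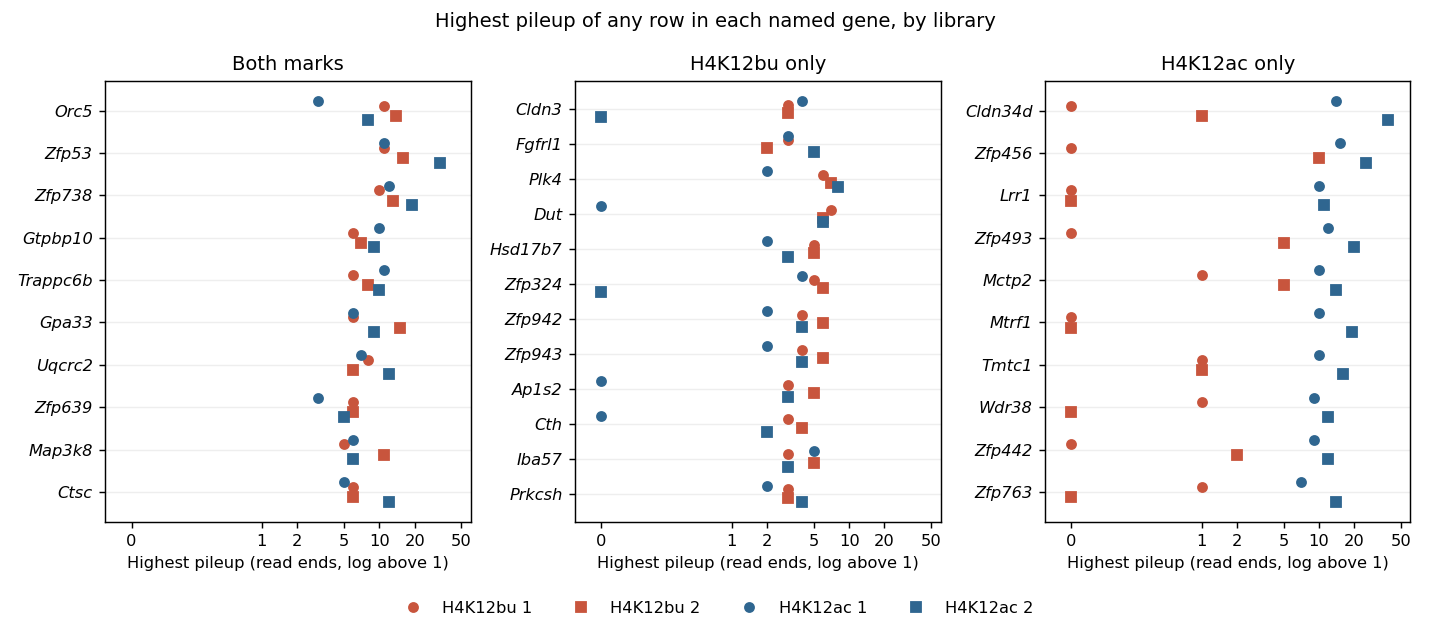
Highest pileup (extended read ends, log axis above 1) of any row in the gene or within 1 kb of it, for Cldn3, Fgfrl1 and the 10 genes with the strongest recurrent regions in each class; red symbols are H4K12bu, blue H4K12ac, circles replicate 1 and squares replicate 2, and 0 means no row. The marks mix among genes with both marks and with H4K12bu only, while among genes with H4K12ac only the H4K12ac pileups reach 7 to 39, H4K12bu replicate 1 stays at 0 or 1 and H4K12bu replicate 2 reaches 10 at Zfp456, with the choice of these genes favoring low H4K12bu.

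Recurrent H4K12bu regions lay at gene ends more than recurrent H4K12ac regions did. With H4K12bu replicate 2 alone set against recurrent H4K12ac the difference was -0.481 percentage points, and with replicate 1 alone 0.335. Those settings compare a single list with recurrent regions, and for both marks the share below was lower in single lists than in recurrent regions. Of the recurrent H4K12bu regions, 40.3% were within 1 kb of a gene end, 41.4% elsewhere in a gene and 18.3% outside genes. For H4K12ac these shares were 20.4%, 48.2% and 31.5%, or 25.4%, 50.1% and 24.5% without the tied rows. In single libraries, 20.7% and 19.9% of the H4K12bu regions and 10.3% and 12.2% of the H4K12ac regions were within 1 kb of a gene end, or 15.3% and 13.4% of the H4K12ac regions without the tied rows, and the marks did not overlap. With the strongest 50909 regions of every library, the shares were 20.7% and 16.9% for H4K12bu and 16.6% and 18.4% for H4K12ac, and the marks overlapped. Recurrent regions from these equal lists were still at gene ends in 43.6% for H4K12bu and 36.5% for H4K12ac, a difference of 7.16 percentage points beside 19.9 with all rows.

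Around start sites the marks also differed in shape. The centre of 28.4% of the recurrent H4K12bu regions and 11.9% of the recurrent H4K12ac regions (15.7% without the tied rows) was within 1 kb of a start site of a protein-coding gene. With the same number of strongest regions from single libraries, the shares were 11.9% and 9.1% for H4K12bu and 9.15% and 10.2% for H4K12ac, and the marks overlapped. In the 250 bases just before the start site there were 1117 H4K12bu centres, and in the 250 bases just after it 773, a ratio of 1.45. For H4K12ac there were 1316 and 1313 centres, a ratio of 1.00, and 1.01 without the tied rows. In single libraries the ratio was 1.45 and 1.17 for H4K12bu and 1.02 and 0.956 for H4K12ac. With equal numbers of regions it was 1.45 and 1.18 against 1.05 and 0.995, so that both H4K12bu libraries were above both H4K12ac libraries in each setting. H3K18bu, measured in libraries labelled with the same fiber diet as H4K12bu, had a ratio of 1.88, and H3K18ac had 0.966, or 1.03 without the tied rows.

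**Figure D2:**
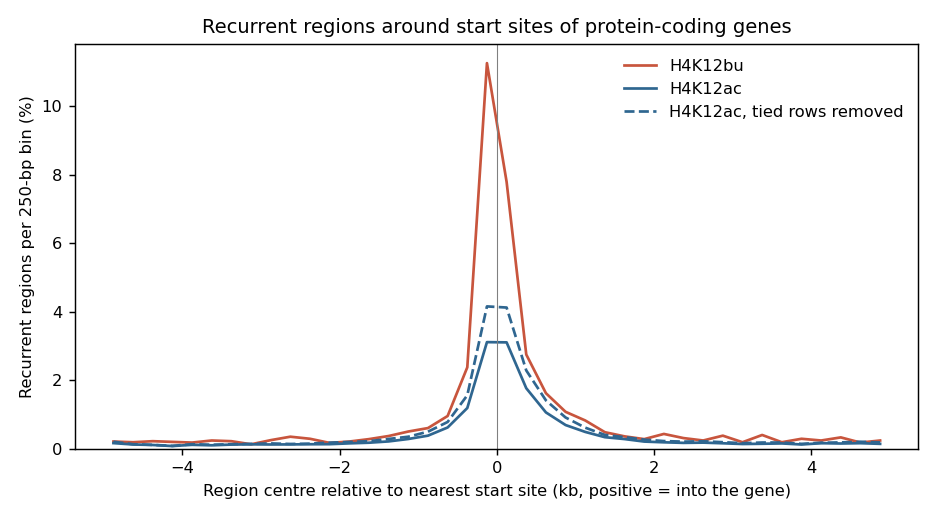
Share of recurrent regions (%) whose centre falls in each 250-bp bin around the nearest start site of a protein-coding gene, by distance in kb; the dashed line is H4K12ac without the rows tied at the lowest p. H4K12bu peaks in the bin before the start site, while H4K12ac is level across it.

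The promoters under the 2 marks differed in base composition. Of 21263 promoter windows of protein-coding genes (250 bases before to 50 after a start site, RefSeq GRCm38.p6), 1201 were overlapped by recurrent regions of both marks, 1226 by H4K12bu only and 2320 by H4K12ac only, or 1195, 1232 and 2226 without the tied rows. The CpG ratio, observed over expected from the base content, was over 0.6 in 80.2% of the windows with H4K12bu only, 72.9% of those with both, 67.1% of those with H4K12ac only (68.5% without the tied rows) and 47.6% of all windows. H4K12bu covered 2.57% of the windows with a CpG ratio up to 0.4 and 19.2% of those over 0.8. H4K12ac covered 5.97% and 23.7%, or 5.49% and 23.4% without the tied rows. Both marks were thus more frequent at windows rich in CpG. The part of base composition in the other differences was not tested.

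Short motifs were counted on both strands of these windows as a description of their letters. The GC box GGGCGG was in 71.4% of the windows with H4K12bu only, 63.1% with both marks, 58.6% with H4K12ac only and 46.2% of all windows. The full cAMP response element TGACGTCA was in 5.63%, 5.58%, 2.24% and 2.23% in the same order. Within windows of a CpG ratio over 0.8 it was in 7.52% with H4K12bu only, 6.69% with both, 3.03% with H4K12ac only and 3.59% with neither. At a ratio of 0.6 to 0.8 these shares were 5.31%, 5.97%, 3.16% and 2.37%, at 0.4 to 0.6 they were 1.46%, 4.15%, 0.806% and 1.62%, and up to 0.4 they were 0.943%, 1.83%, 0.256% and 0.605%, so that windows with H4K12bu only were not above those with neither in every bin. The ETS core CCGGAAG was in 20.2%, 27.9%, 21.7% and 11.6% of the windows, in the first order. The AP-1 site TGANTCA was in 5.30%, 5.33%, 5.09% and 6.99%, the CDX site TTTATNG in 7.50%, 5.91%, 6.21% and 9.58%, and the HNF4A site CAAAGTCCA in 0.0816%, 0.666%, 0.259% and 0.451%. The AP-1 and CDX letters were thus less frequent in marked windows than among all windows, and the HNF4A letters were in only 8 windows with both marks and 1 with H4K12bu only.

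Gene length moved with the classes. The median length was 37341 bp for genes with both marks, 32370 bp with H4K12ac only, 12962.5 bp with H4K12bu only and 7384 bp with neither. Among the 2429 genes over 100 kb, 42.3% had both marks, 46.9% H4K12ac only and 1.24% H4K12bu only, or 41.9%, 44.4% and 1.61% without the tied rows. Among the 2892 genes of 5 to 10 kb, these shares were 12.5%, 20.2% and 7.88%, or 12.4%, 18.8% and 7.99%. Of the genes with H4K12bu only, 72.6% had a region within 1 kb of a gene end, against 61.4% of the genes with both marks for H4K12bu and 54.1% of the genes with H4K12ac only. A gene list with long members can therefore hold few genes with H4K12bu only, and the median length is given with the lists below.

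**Figure D3:**
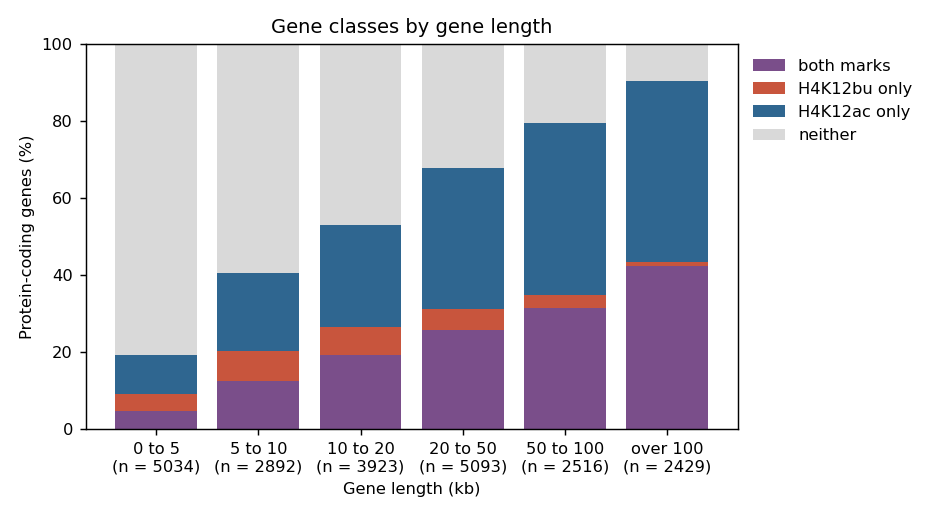
Protein-coding genes (%) with recurrent regions of both marks, H4K12bu only, H4K12ac only or neither, by gene length in kb, with the number of genes under each bar. The share with any region rises with length, while H4K12bu only is highest at 5 to 20 kb and falls to 1.24% over 100 kb.

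The other histone site gave a readout that the gene classes did not use. A recurrent H3K18ac region lay at 78.8% of the genes with both H4K12 marks, 61.2% of those with H4K12ac only, 55.0% of those with H4K12bu only and 19.8% of those with neither, beside 45.5% of all protein-coding genes. Without the tied rows these shares were 69.7%, 44.6%, 46.1%, 12.4% and 34.3%. A recurrent H3K18bu region lay at 41.3%, 13.8%, 25.0%, 3.43% and 15.3%, in the same order. Genes with H4K12bu only thus carried H3K18bu more often than genes with H4K12ac only, although they were shorter. The H3K18bu libraries have the same diet label as the H4K12bu libraries, so that mark and labelled diet cannot be told apart here either. At the level of regions, 21.3% of the H4K12bu regions were overlapped by H3K18bu and 40.7% by H3K18ac, and for H4K12ac regions these shares were 5.82% and 20.8%. Without the tied rows H3K18ac overlapped 37.6% of the H4K12bu regions, and the shares of H4K12ac regions were 7.86% and 22.0%. The H3K18bu regions covered 2.53 Mb and the H3K18ac regions 15.7 Mb, so that these shares are not comparable between marks of different cover.

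Tight junction genes were among those with the larger shares of H4K12bu only. Of 27 genes (median length 20200 bp), 8 had both marks, 4 H4K12bu only, 8 H4K12ac only and 7 neither (H4K12ac only at 7 without the tied rows). Thus 14.8% had H4K12bu only, beside 5.2% of all protein-coding genes, 7.34% of those of 10 to 20 kb and 5.5% of those of 20 to 50 kb. The 4 were Cldn3, Cldn7, Pard6b and Ildr1, which are 2 claudins, a polarity protein and a receptor of tricellular junctions. At Cldn7 and Pard6b the weaker H4K12bu replicate had a −log10 p of 3.38, the value of a row with a pileup of 1. Ildr1 had H4K12bu pileups of 3 and 2 near a gene end (chr16:36693817-36694108), no H4K12ac row in replicate 1 and 11 rows in replicate 2. Genes with both marks included the scaffold gene Tjp1, the adaptor Cgnl1 and Cldn23, and the main transmembrane protein Ocln had H4K12ac only, with pileups of 2 and 9. FGF receptors and ligands (21 genes, median length 42184 bp) had 3 genes with both marks, 2 with H4K12bu only, Fgfrl1 and Fgf1, and 5 with H4K12ac only, Fgf10, Fgf13, Fgf14, Fgfr2 and the coreceptor Kl, while 11 had neither. Of genes of 20 to 50 kb, 25.7% had both marks, 5.5% H4K12bu only, 36.6% H4K12ac only and 32.2% neither, beside 14.3%, 9.52%, 23.8% and 52.4% of this list. Fgf1 rested on pileups of 1 and 1.

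Marker lists of cell types differed in their shares with both marks, and none of these differences was tested. Of 15 epithelial identity genes (median length 15149 bp), 7 had both marks (46.7%, beside 20.5% of all protein-coding genes), and 1, the epithelial ETS factor Elf3, had H4K12bu only. Among the 7 were Vil1 (villin), Cdh1 (E-cadherin) and the transcription factor genes Hnf4a, Klf5, Grhl2 and Cdx1, while Cdx2, Epcam and the keratin genes Krt18, Krt19 and Krt20 had neither. The regions at Hnf4a were shallow, with pileups of 1 and 1 for H4K12bu and 2 and 2 for H4K12ac. Of 14 immune genes (10894.5 bp) none had H4K12bu, beside 25.7% of all protein-coding genes, and 4 had H4K12ac, beside 49.1%, with the leukocyte phosphatase Ptprc at pileups of 4 and 5. Of 12 genes of enteric neurons and glia (14774.5 bp) none had H4K12bu and 6 had H4K12ac, which is about the share of all genes. Of 10 smooth muscle genes (33298 bp) 2, Synpo2 and Mylk, had both marks (20.0%). Another 5 had H4K12ac only (50.0%), beside 28.6% of all protein-coding genes, or 3 without the tied rows (30.0%), beside 26.3%. Of 10 fibroblast genes (31900.5 bp) 1, the collagen gene Col1a1, had H4K12bu only, with pileups of 1 and 1. Another 3 had H4K12ac only (30.0%), or 2 without the tied rows (20.0%), near the shares of all genes. Of 10 endothelial genes (56931 bp) 2, Prox1 and Vwf, had both marks (20.0%) and 1, Pecam1, had H4K12bu only, and Prox1 joined it without the tied rows.

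The same marker lists gave an account of the tissue in single libraries. H4K12bu replicate 1 had a row at 13 of 15 epithelial genes, 3 of 10 smooth muscle genes, 4 of 10 fibroblast genes, 0 of 14 immune genes and 5 of 12 neuron and glia genes. In H4K12bu replicate 2 the numbers were 13, 9, 8, 5 and 7. In H4K12ac replicate 1 they were 15, 10, 10, 10 and 10, and in H4K12ac replicate 2 they were 13, 8, 8, 11 and 11. Summed over the list, immune genes held 0 and 11 rows in the H4K12bu libraries and 61 and 96 in the H4K12ac libraries, most of the latter at Ptprc on chromosome 1, with 38 and 70. Without the tied rows the H4K12ac libraries held 28 and 33 rows at 9 and 11 immune genes, so that most of these H4K12ac rows were tied ones. Epithelial genes held 66 and 95 rows against 109 and 117, or 86 and 117 without the tied rows. Endothelial genes had a row at 8 and 9 of 10 in the H4K12bu libraries and at 10 and 10 in the H4K12ac libraries, with 30 and 54 rows against 81 and 166, or 63 and 145 without the tied rows. Rows of both marks were thus present at genes of other cell types than epithelium, fewest for H4K12bu at immune genes, and the H4K12bu lists are shallower, so that the part of cell makeup, depth and diet in these counts cannot be told apart.

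Lists within the epithelium were counted in the same way, with no test between them, beside 20.5% of all protein-coding genes with both marks, 5.2% with H4K12bu only and 28.6% with H4K12ac only. Of 29 stem and crypt genes (median length 36857 bp), 13 had both marks, among them Lgr5, Lgr4, Cd44, Ephb2, Sox9, Myc and Lrig1, and 3 had H4K12bu only, Ephb3, Notch1 and Tcf7. Another 7, among them Prom1, Mki67 and Rnf43, had H4K12ac only, and 6 had neither, Olfm4, Ascl2, Axin2, Bmi1, Hes1 and Cdca7. Together 55.2% had H4K12bu, beside 25.7% of all protein-coding genes. By class, 44.8% had both marks and 10.3% H4K12bu only, beside 25.7% and 5.5% of genes of 20 to 50 kb. The H4K12bu regions were shallow at Ephb2, with pileups of 1 and 1, and at Cd44, Lgr4 and Ephb3, with 1 and 2. Of 30 absorptive colonocyte genes (23337.5 bp), 7 had both marks, among them the brush border peptidase Dpp4, the sodium exchanger Slc9a3 and the carbonic anhydrases Car2 and Car4, 2 had H4K12bu only, Guca2a and Cdhr5, and 14 had H4K12ac only (46.7%), or 13 without the tied rows. Together 30.0% had H4K12bu, near the share of all genes. Slc9a3 had H4K12bu pileups of 1 and 2 and H4K12ac pileups of 6 and 9 over the same intragenic stretch. Of 23 goblet cell genes (16347 bp) 3 had both marks (13%), 2, Ern2 and Foxa3, had H4K12bu only, and 8 had H4K12ac only (34.8%), or 6 without the tied rows, while Muc2, Tff3, Zg16 and Spdef had neither. Ern2, the goblet cell sensor of unfolded protein, had H4K12bu pileups of 4 and 2 at chr7:122184642-122184904 and H4K12ac pileups of 3 and 3 at other places. Of 29 enteroendocrine and tuft cell genes (11419 bp) 2, Sh2d6 and Il17rb of tuft cells, had both marks (6.9%), 1, secretin (Sct), had H4K12bu only and 20 had neither.

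The list of butyrate transport, sensing and oxidation carried both marks in 12 of 28 genes (42.9%, median length 30068.5 bp), beside 20.5% of all protein-coding genes and 25.7% of those of 20 to 50 kb. Those 12 include Pparg, Ppargc1a, Pdk4 and Cpt1a, whose roles are wider than butyrate. The strongest H4K12bu region of the list was at Acadm (chr3:153944418-153944928), with pileups of 3 and 6 and −log10 q of 1.28 and 4.70. The strongest recurrent H4K12ac region of Acadm lay elsewhere in the gene, with pileups of 4 and 5. Bsg, the chaperone of the monocarboxylate transporters, had H4K12bu only, and the butyrate transporter Slc5a8 and the ketolytic enzyme Oxct1 had H4K12ac only, Oxct1 with pileups of 6 and 4. The transporter Slc16a1 and the receptors Ffar2, Ffar3 and Hcar2 had neither.

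Pathways of growth and adhesion have long genes and are read beside genes of like length. Of all genes of 50 to 100 kb, 31.5% had both marks and 44.7% H4K12ac only, and of those of 20 to 50 kb 25.7% and 36.6%. Of the genes of 10 to 20 kb, the length of the last 2 lists here, 19.3% had both marks and 7.34% H4K12bu only. Of 36 cell-substrate junction genes, which are long (median 71530.5 bp), 22 had both marks (61.1%), 13 H4K12ac only, none H4K12bu only and 1, Itgb1, neither. The docking protein gene Bcar1 had the strongest H4K12bu region of this list, with pileups of 5 and 4, and the tensin gene Tns3 had 8 recurrent H4K12bu regions and 9 of H4K12ac. Of 30 TGF-beta genes (69834.5 bp), 16 had H4K12ac only (53.3%), among them the signal transducers Smad2, Smad4 and Smad5 and the receptors Tgfbr2 and Bmpr2, 8 had both marks (26.7%), among them Smad3, Smad7 and the repressor Ski, and 2, Tgfb3 and Tgif1, had H4K12bu only. Of 37 Wnt genes (38250 bp) 13 had both marks (35.1%) and 11 H4K12ac only (29.7%), or 10 without the tied rows. Those with both marks included Apc, Axin1, Tcf7l2 and Lgr5, while 2, the receptor Fzd5 and the factor Tcf7, had H4K12bu only, and the beta-catenin gene Ctnnb1 had neither. Of 21 AP-1 and KLF genes (10176 bp) 10 had both marks and none H4K12bu only, and without the tied rows Atf3 moved to H4K12bu only; Fos, Jun, Junb and Klf4 had neither, while Jund and Klf5 had both. Of 30 genes of protein folding in the ER (15721 bp), 10 had both marks (33.3%) and 3, Ern2, Ddit3 and Sdf2l1, had H4K12bu only. Among them Dnajb9, a cochaperone of BiP, had H4K12bu pileups of 4 and 2 and H4K12ac pileups of 4 and 4.

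The genes of the enzymes and readers of these marks are also long in part, and of all genes of 50 to 100 kb 31.5% had both marks, 3.34% H4K12bu only, 44.7% H4K12ac only and 20.4% neither. Of those of 20 to 50 kb these shares were 25.7%, 5.5%, 36.6% and 32.2%. Of 17 histone acyltransferase genes (52363 bp) 3 had both marks, 3 (Kat5, Taf1 and Ing5) H4K12bu only and 8, among them Ep300, Crebbp and Kat2a, H4K12ac only, or 7 without the tied rows, and 3 neither. Of 18 deacylase genes (20972.5 bp) 7 had both marks, 2 (Hdac8 and Hdac11) H4K12bu only and 6 H4K12ac only (38.9%, 11.1% and 33.3%). Sirt6 had the strongest H4K12bu region of the deacylases, with pileups of 2 and 5. Hdac2 had H4K12bu pileups of 2 and 4 and H4K12ac pileups of 7 and 10 over the same stretch. Its folds over local background were 2.83 and 4.48 against 6.06 and 7.07, with both H4K12ac libraries above both H4K12bu libraries. Of 20 bromodomain and YEATS genes (54638.5 bp) 8 had both marks, 1 (Yeats4) H4K12bu only and 10 H4K12ac only (40.0%, 5.0% and 50.0%), and 1 had neither (5.0%).

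Among gene families, genes of energy and translation are given beside sensory receptor and other families. Of 74 nuclear genes of oxidative phosphorylation, which are short (median 7387 bp), 30 had both marks (40.5%) and 8 H4K12bu only (10.8%), beside 12.5% and 7.88% of all genes of 5 to 10 kb. Of 84 ribosomal protein genes (3179 bp), 14 had both marks (16.7%) and 12 H4K12bu only (14.3%), beside 4.73% and 4.53% of genes up to 5 kb. Of 367 Zfp zinc finger genes (18193 bp), 148 had both marks (40.3%) and 25 H4K12bu only, beside 19.3% and 7.34% of genes of 10 to 20 kb. The remaining lists hold short genes. Of all genes up to 5 kb, 4.73% had both marks, 4.53% H4K12bu only and 10.0% H4K12ac only, the last 8.70% without the tied rows. Of 1106 olfactory receptor genes (950 bp), known mainly from olfactory neurons, 1 had both marks (0.0904%) and 5 H4K12bu only (0.452%). Another 28 had H4K12ac only (2.53%), or 13 without the tied rows (1.18%). Of 353 vomeronasal receptor genes (960 bp) none had H4K12bu and 7 had H4K12ac (1.98%), or 6 without the tied rows (1.70%). Of 39 Hox genes (3737 bp) 2 had both marks (5.13%), or 1 without the tied rows (2.56%), and 1 had H4K12bu only (2.56%), or 2 without them (5.13%). Of 39 replication-dependent histone genes (505 bp) none had both marks and 1 had H4K12bu only (2.56%).

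**Figure D4:**
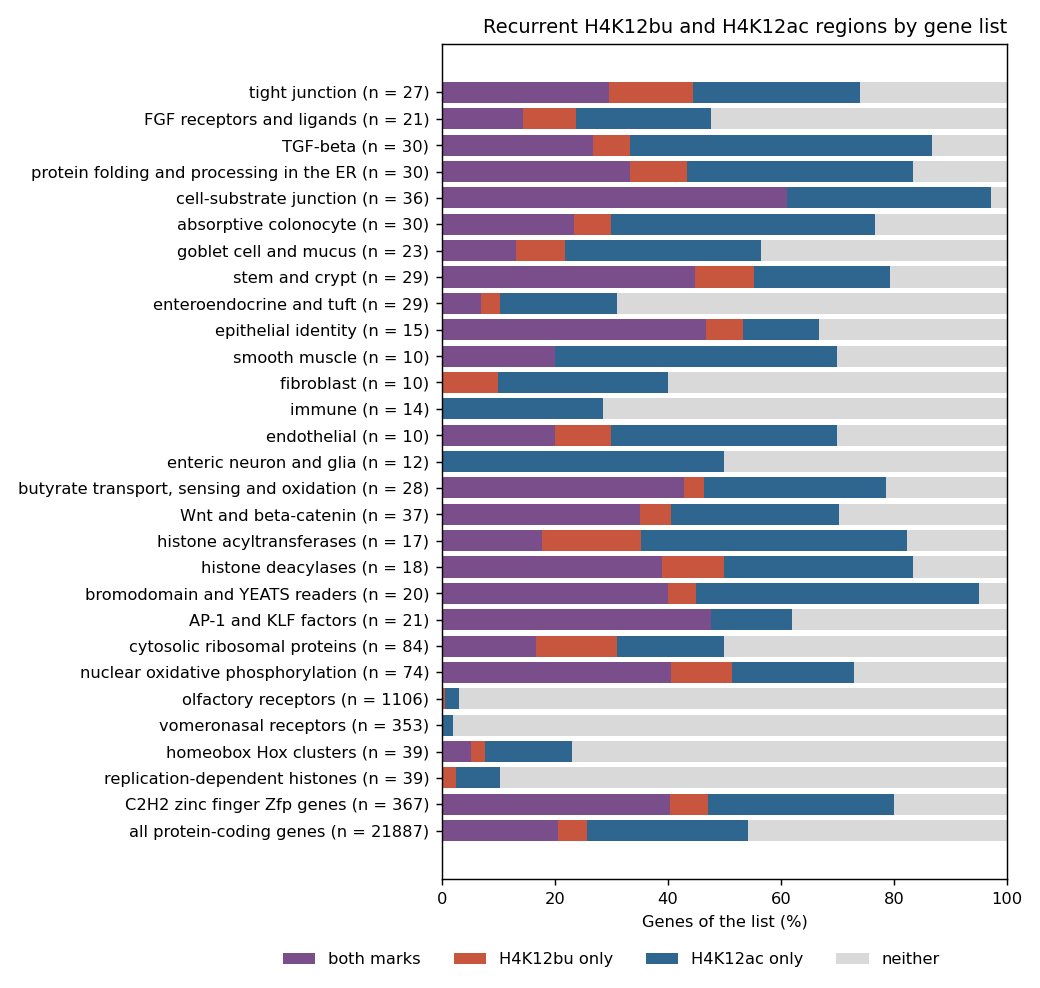
Genes of each list (%) with recurrent regions of both marks, H4K12bu only, H4K12ac only or neither, from all deposited rows, with the number of genes measured and all 21887 protein-coding genes in the lowest bar. Cell-substrate junction genes have the largest share with both marks (61.1%), and immune, neuron and glia, and vomeronasal genes have no bar for H4K12bu.

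The tied rows changed the counts most on 5 chromosomes. On chromosome 1 there were 8737 recurrent H4K12ac regions and 705 of H4K12bu, a ratio of 12.4, and without the tied rows there were 2275, a ratio of 3.23. On chromosomes 10, 11, 12 and 13 the ratio was 5.90, 4.60, 6.41 and 6.09 with all rows and 3.24, 2.50, 3.28 and 3.34 without the tied ones. On the 15 other chromosomes except Y it was between 2.60 and 3.57 in both cases. The share of protein-coding genes with H4K12ac only on chromosome 1 was 45.3%, and 30.2% without the tied rows.

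**Figure D5:**
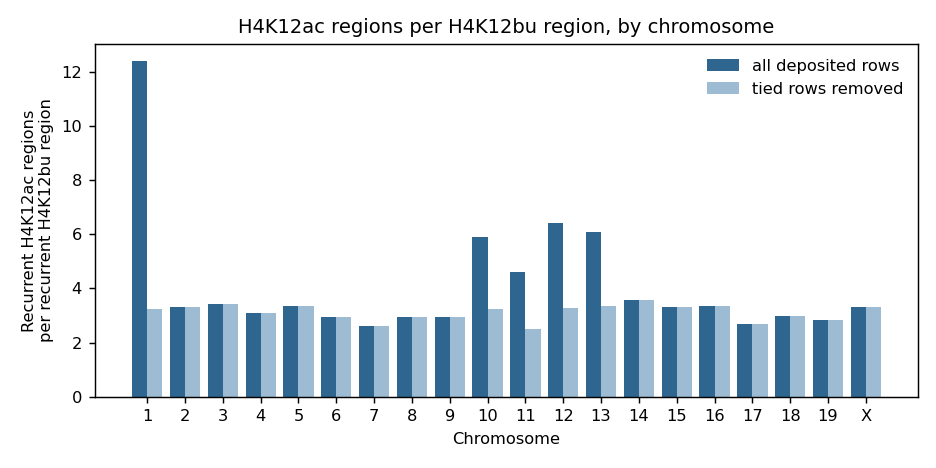
Recurrent H4K12ac regions per recurrent H4K12bu region on each chromosome except Y, from all deposited rows (dark) and without tied H4K12ac rows (light). Chromosomes 1 and 10 to 13 stand at 4.60 to 12.4 with all rows and at 2.50 to 3.34 without the tied ones.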

How the data were processed

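H4K12bu and H4K12ac were profiled by CUT&Tag in nuclei of mouse large intestine, with 2 libraries for each mark; H3K18bu and H3K18ac libraries served as a second readout. The submitters' processing notes name bcl2fastq 2.17.1, cutadapt 1.9.1, Bowtie2 2.3.1, MACS2 2.1.0 and the build mm10, and peaks were deposited per library. The deposited lists give, for each row, a fold over local background (a ratio) and −log10 p and −log10 q, as the authors' peak caller wrote them, at a p threshold of 0.01. No read counts or library totals were used, so the depth in reads is unknown and was judged from the pileup and local background. Both were solved from fold and p within 0.01 of the deposited −log10 p. On simulated rows 100% and 99.84% of pileups were recovered.

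Overlapping rows of each list were merged in Python (overlap of at least 1 bp), and regions of a mark with a row of both replicates were kept. On simulated rows the merging and overlap code was checked against bedtools 2.31.1. They were matched to RefSeq GRCm38.p6 genes (gene body and 1 kb past both ends), on chromosomes 1 to 19, X and Y. The gene table holds no exons or strand, so exon and intron were not assigned, and start sites came from the promoter table. Python 3.11.15, numpy 2.4.6, pandas 2.3.3, scipy 1.17.1 and matplotlib 3.10.9 were used. No test was made, and p-values were only those deposited.

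The named genes were Fgfrl1 and Cldn3, the 10 protein-coding genes ranked first in each class by the weaker replicate's −log10 p (for genes with both marks, at a region within 1 kb of a gene end), and up to 4 members per list for each kind of region. List members listed by class besides these were named after their values were seen. Of 468 genes in the hand-written lists, 467 were matched. Members and lists were chosen with earlier results of these data known. Alternatives changed the rows counted, the replicates needed, the window and the genes counted. Some list members are counted but not reported by name here.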

Additional observations from a re-analysis of the deposited data

How the results depend on the processing

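No paired test was made, as the results come from no test. Within replicate number 1, the gene end share of single libraries was 20.7% for H4K12bu against 10.3% for H4K12ac. Within number 2 it was 19.9% against 12.2%. With equal numbers of strongest regions it was 20.7% against 16.6% and 16.9% against 18.4%, so that the order differed between the numbers. Regions with the same start and end were more numerous between marks within a number (215 and 199) than across numbers (56 and 93). The class sizes followed the rows and replicates that were counted. Over all genes, 5445 had both marks, 1746 H4K12bu only and 9805 H4K12ac only. With q below 0.05 these were 218, 132 and 3403, and with a pileup of at least 2 there were 1424 with both marks and 242 with H4K12bu only. With equal numbers of strongest regions 1983 had both marks, 2530 H4K12bu only and 3267 H4K12ac only, so that H4K12bu only then outnumbered both marks. Gene ends alone gave 2707 with both marks, 1950 with H4K12bu only and 6105 with H4K12ac only. With a row in either replicate 23401 genes had both marks. Protein-coding genes alone gave 1138 with H4K12bu only and 6251 with H4K12ac only, and requiring no row in either list of the other mark gave 64 and 1935.

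The share of H4K12bu regions overlapped by H4K12ac, 35.1%, was 54.3% with q below 0.05, 61.4% with a pileup of at least 2, 24.6% with equal numbers of regions, 31.7% with either replicate and 27.7% with the stretch covered in both. The difference in the gene end share, 19.9 percentage points, was 23.8 with q below 0.05, 29.2 with a pileup of at least 2, 14.9 without the tied rows, 7.16 with equal numbers of regions, 22.2 with a window of 3 kb and 8.22 with either replicate.

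Leaving out 1 library sets a single list of one mark against recurrent regions of the other, by construction. Genes with both marks then numbered 6786 to 12515, with H4K12bu only 176 (without H4K12ac replicate 1) to 9570 (without H4K12bu replicate 1), and with H4K12ac only 2735 to 24339. The overlap was 10.6% to 59.7%. The gene end difference ran from -0.481 without H4K12bu replicate 1, a reversal, and 0.335 without H4K12bu replicate 2, to 28.0 and 30.0 without H4K12ac replicates 1 and 2. The other results of these settings differed from those above by less than 1.5 times or by less than the spread between replicates. The depth of the H4K12bu lists limits any statement that a gene lacks the mark. Counting rows at marker genes without the tied rows was chosen after seeing the data.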
